A study of Mus musculus with 24 samples.

Results

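The response of the mouse mammary gland to progesterone 28 h after the first injection was measured against mice that received the oil vehicle and were killed at that time. The comparison uses 6 of the 24 arrays of the series, chosen by the sample titles: 3 with progesterone at 28 h and 3 with oil at 28 h. All mice were nulliparous Balb/c animals, ovariectomized at 6 weeks of age and then rested for 2 weeks, so that both groups lack the ovarian source of the hormone. The progesterone group received 1 mg of progesterone in 100 µl of sesame oil by daily injection under the skin, and the control group 100 µl of oil. On a daily schedule the mice killed at 28 h would have had more than 1 injection, so that time since the first injection and time since the last one cannot be told apart. RNA of 5 mice was pooled for each array, and a group stands for 15 mice. In the titles the 3 arrays are numbered biological replicates, and p-values measure the spread between pools, not between single mice. The RNA came from whole gland tissue. In such bulk tissue, fewer cells of a type and less RNA per cell cannot be told apart.

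Progesterone acts through the progesterone receptor, a hormone-activated transcription factor that in the mammary gland is found in a subset of the luminal cells lining the ducts. These cells are known to pass the signal on to their neighbours with secreted factors such as WNT4 and RANKL, which act on the outer, basal layer of the duct and on the progenitors held there. The ducts lie in a fat pad with fibroblasts, vessels, macrophages and a lymph node, all of which contribute RNA to the tissue measured here.

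Of 12352 genes tested, 313 (2.53%) were called different between progesterone and oil at 28 h, 240 of them higher (1.94%) and 73 lower (0.591%). A gene was called at a Benjamini-Hochberg adjusted p under 0.05 in a limma model, and 1534 genes had an unadjusted p under 0.05. The median log2 difference over all genes tested was 0.0033. Among the called genes the median was 0.73 for the rises and -0.67 for the falls, and 73 of the 313 changed by at least 2-fold. On 305 of the 313 the 3 progesterone arrays did not overlap with the 3 oil arrays, as was the case for 12% of all genes tested. The plot of difference against intensity shows the rises led by the basal keratin gene Krt17 and the falls by the caseins Csn1s2a and Csn2. Both caseins were tested only because they were high in the 28 h oil arrays, as described below, so their falls were in part fixed in advance.

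**Figure D1:**
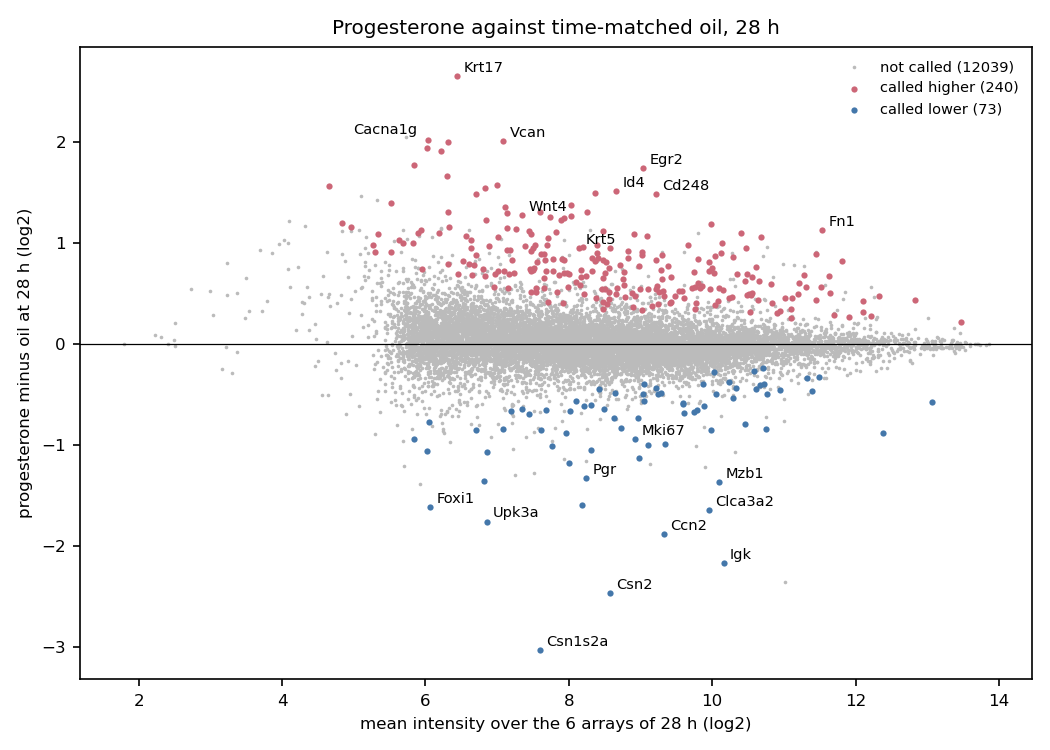
Progesterone minus oil at 28 h on the log2 scale (y axis) against the mean intensity of a gene over the 6 arrays on the log2 scale (x axis), with 1 point per gene. Of 12352 genes, 240 were called higher (red) and 73 lower (blue), and Krt17 has the largest rise at 2.66 and Csn1s2a the largest fall at -3.04. Csn1s2a and Csn2 were tested only because they were high in the 28 h oil arrays.

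The arrays that set these differences did not lie evenly. The oil arrays of 28 h differed from the 9 oil arrays of 4, 16 and 76 h at 939 of the 12352 genes (7.6%), 754 of them lower (6.1%) and 185 higher (1.5%) in the 28 h oil arrays. Against those 9 oil arrays the 28 h progesterone arrays differed at 108 genes (0.874%), 56 higher (0.453%) and 52 lower (0.421%). Of the 240 genes called higher with progesterone, 192 were also called lower in the 28 h oil arrays than in the other oil arrays, and the median difference of all 240 was 0.0014 when the 28 h progesterone arrays were set against the other oil arrays. Levels on the other oil arrays, or differences from them, are therefore given beside the called genes named below. That comparison shares the progesterone arrays and is no independent check. The comparison of 28 h oil with other oil shares the 28 h oil arrays. A gene called higher against these arrays tends to be low in them, so the count of 192 was in part fixed in advance. Among the progesterone arrays, replicate 2 was the lowest of its group for 185 of the 240 genes called higher. Leaving out progesterone replicate 1 left 140 calls, leaving out oil replicate 2 left 202, and the count was 214 to 459 without any other 1 of the 6 arrays. A fit to the 6 arrays alone called 76 genes, 71 of them among the 313. The ratios of 3' to 5' control probes, a sign of RNA length, had log2 values for actin of 0.459 ± 0.0836 (SD) in oil and 0.460 ± 0.0765 with progesterone (exact two-sided permutation p = 1, n = 3 each, where the smallest p possible is 0.1). On the other oil arrays the actin value was 0.245 to 0.437, below both 28 h means. Single 28 h arrays had 0.366, 0.528 and 0.483 in oil and 0.409, 0.548 and 0.423 with progesterone, some of them within that range. For Gapdh the means were -0.107 in oil and -0.092 with progesterone, within the -0.222 to 0.032 of the other oil arrays. The part of RNA length in the differences from those arrays was not tested.

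Of the defining markers of the gland, the fat cell gene Plin1 was not among the tested genes. The others were measured above the array median on all 6 arrays, among them the basal genes Krt5, Krt14 and Acta2, the luminal genes Krt8, Krt18 and Epcam, the fat cell gene Adipoq, the collagen genes Col1a1 and Col3a1, and Pecam1 of vessel walls. So were the skeletal muscle genes Acta1 (3036 to 7618) and Ckm (1167 to 5255) and the lymphocyte genes Cd79a (907 to 3183) and Cd3e (679.7 to 1174). Muscle, B cell and T cell RNA was thus part of every pool at 28 h.

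The progesterone receptor gene fell at 28 h and the local signal gene Wnt4 rose, while the RANKL gene did not pass the test. The receptor transcript Pgr had intensities of 445, 406 and 427 on the 3 oil arrays and 182, 109.7 and 244 on the 3 progesterone arrays. The groups did not overlap, and Pgr fell to a log2 difference of -1.33 ± 0.21 (SE, adjusted p = 0.000453). Its levels on the other oil arrays, 235 to 588, took in those of 28 h oil. Wnt4, one of the secreted WNT signals of the gland, read 90.6, 85.0 and 103 in oil and 271, 143 and 289 with progesterone. It rose by 1.27 ± 0.22 (adjusted p = 0.0014), with progesterone replicate 2 lowest but still above every oil array. Id4, an inhibitor of DNA binding that acts in basal cells, had 219, 228 and 177 in oil and 728, 467 and 608 with progesterone, a rise of 2.86-fold (log2 1.52 ± 0.14, adjusted p = 9.28e-07). Cyclin D1, Ccnd1, which drives entry into the cell cycle, rose from 764, 775 and 705 to 1275, 1051 and 1022 (log2 0.57 ± 0.11, adjusted p = 0.00455). These 4 genes kept their direction against the other oil arrays, at -1.20 for Pgr, 1.54 for Wnt4, 1.25 for Id4 and 0.66 for Ccnd1, all called there. Cited1, a transcriptional co-regulator of luminal cells, read 413, 402 and 436 in oil and fell to 306, 118 and 224 (log2 -1.05 ± 0.22, adjusted p = 0.00662), and was lower than on the other oil arrays too (-0.94, adjusted p = 0.00707).

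Of the 16 tested genes on the list of progesterone-responsive mammary genes, these 3 rises and 2 falls were the calls, with a list median of 0.21. The RANKL gene Tnfsf11, which carries the hormone's signal to neighbouring cells, read 67.0, 67.7 and 36.1 in oil and 64.5, 67.9 and 80.4 with progesterone, near the array median, and did not pass (log2 0.37 ± 0.29, adjusted p = 0.719). Elf5, a factor of alveolar luminal cells, had 157, 283 and 268 and 149, 82.2 and 158, with 1 oil array inside the progesterone range (log2 -0.88 ± 0.27, adjusted p = 0.0882). The other Elf5 probe set stood at -0.03 ± 0.23 (adjusted p = 0.994). The estrogen receptor gene Esr1 differed by 0.09 ± 0.12 (adjusted p = 0.894). Areg and Calca are not analysed here. The Ccnd1 call was lost without progesterone replicate 1, and Elf5 was called without oil replicate 1. The other Ccnd1 probe sets stood at 0.58 (adjusted p = 0.416) and 0.38 (adjusted p = 0.162) and were not called.

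Secreted growth factors of the WNT, EGF and FGF families were all on the positive side. Each of the 16 tested ligands had a log2 difference above 0, from 0.01 to 1.49, with a median of 0.25, against 6286 of 12352 genes above 0. Only Wnt2 and Wnt4 were called. Wnt2, a WNT ligand of the stroma, read 44.8, 43.4 and 80.1 in oil and 173, 116 and 169 with progesterone, a log2 rise of 1.49 ± 0.20 (adjusted p = 5.92e-05). On the other oil arrays Wnt2 lay at 98.0 to 162, overlapping with the progesterone arrays and above the 28 h oil arrays, and the difference there was 0.19 (adjusted p = 0.612). Wnt4 and Wnt2 therefore differ in their controls: the 28 h oil level of Wnt4 lay near its range of 46.3 to 98.2 on the other oil arrays, that of Wnt2 below it.

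Krt17, Krt15 and Krt5, keratins of the basal layer, rose at 28 h. Krt17, a keratin of basal and activated epithelial cells, had 18.4, 24.8 and 26.1 on the oil arrays and 213, 104 and 134 with progesterone, the largest rise of all called genes (log2 2.66 ± 0.40, adjusted p = 0.000342). Krt15, a keratin of basal progenitors in several epithelia, read 27.4, 17.7 and 27.9 against 144, 48.5 and 77.6 (log2 1.78 ± 0.31, adjusted p = 0.00145). Both were dimmer than the array median in oil, and their fold changes are the less precise for it. Krt5, the keratin that marks the basal layer, rose from 173, 200.3 and 198 to 503, 305 and 321 (log2 0.95 ± 0.15, adjusted p = 0.000729). Smooth muscle actin, Acta2, the contractile protein of myoepithelial cells, rose less, from 3728, 3981 and 4085 to 5231, 4501 and 4926 (log2 0.31 ± 0.06, adjusted p = 0.00547). Krt14, the partner of Krt5, had 337, 325 and 393 and 603, 389 and 472, with overlapping arrays, and was not called (log2 0.45 ± 0.18, adjusted p = 0.258). The other Krt14 probe set stood higher, at 1.14 ± 0.29, and just missed the threshold (adjusted p = 0.0514). Krt17, Krt15, Krt5 and Acta2 were the 4 calls among the 22 tested basal markers, of which 18 had positive differences, with a median of 0.26. Set against the other oil arrays, Krt17 (2.42), Krt5 (0.87), Acta2 (0.29) and Krt14 (0.64, adjusted p = 0.0375) were called higher, and Krt15 was not (0.85, adjusted p = 0.131). The Acta2 call was lost without progesterone replicate 1, its other probe set stood at 0.06 (adjusted p = 0.989), and in the fit to the 6 arrays only Krt17 was called of the basal list.

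Luminal markers did not move as a group. Of 21 tested, Aldh1a3, a retinaldehyde dehydrogenase of luminal progenitors, rose from 211, 278 and 352 to 417, 426 and 456 (log2 0.66 ± 0.14, adjusted p = 0.00909) and Cited1 fell. The list median was 0.09, and Krt18, a keratin of all luminal cells, read 2130.2, 2210.2 and 1978 in oil and 2535, 1524 and 2046 with progesterone (log2 -0.08 ± 0.13). The progesterone arrays spread widely here. The luminal score, the median log2 deviation of the list's genes from their means over all 24 arrays, was 0.20, -0.51 and -0.08 on progesterone replicates 1, 2 and 3 and -0.18, -0.01 and -0.18 on the oil arrays. Progesterone replicate 2 was thus lowest of the 6, below the -0.37 to 0.04 of the other oil arrays, and it was also lowest of its group for Wnt4, Krt17, Krt15, Krt5 and Acta2. Without it 5 luminal markers were called. The Aldh1a3 call was lost without oil replicate 1, and against the other oil arrays Aldh1a3 stood at -0.39 (adjusted p = 0.125).

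**Figure D2:**
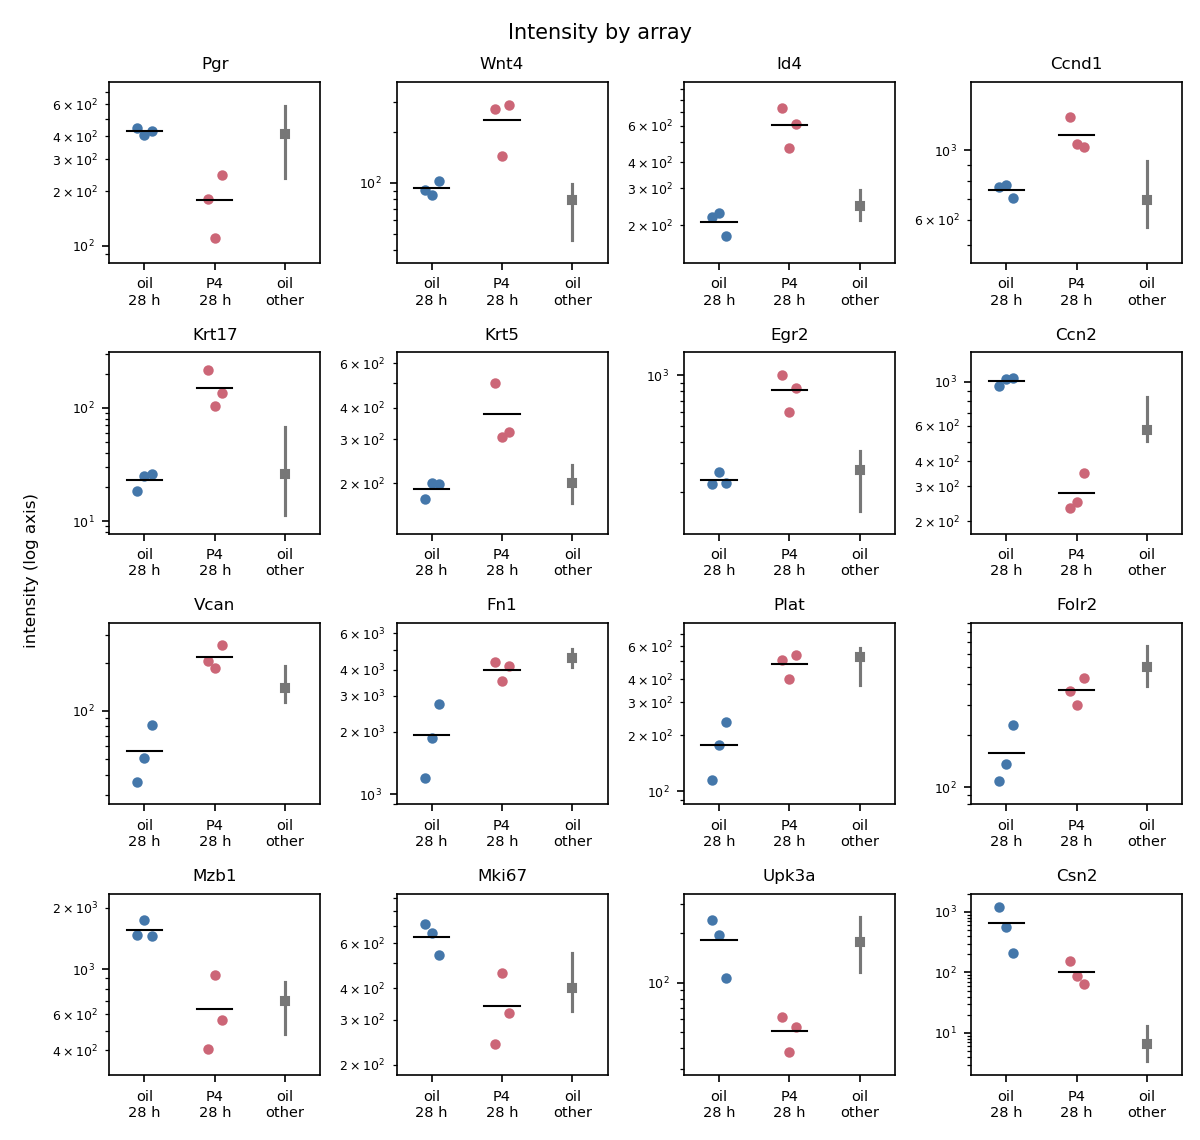
Intensity (y axis, log scale) of 16 genes, with 1 point per array for oil (blue) and progesterone (red, P4) at 28 h and bars at the group means. Grey lines span the lowest to the highest of the 9 oil arrays of 4, 16 and 76 h and squares mark their median. Pgr, Wnt4, Id4, Krt17, Krt5, Egr2 and Upk3a have 28 h oil arrays within or near the grey range, while for Vcan, Fn1, Plat and Folr2 the 28 h oil arrays lie below it.

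Several genes of ion-transporting and surface epithelium fell. Of 21 tested transporter, channel and uroplakin genes, 7 were called lower and 1 higher, and the list median was 0.07. Upk3a, a uroplakin of the apical membrane, read 240.0, 194 and 106 in oil and 61.7, 37.9 and 54.2 with progesterone, a log2 fall to -1.76 ± 0.31 (adjusted p = 0.00172). Clca3a2, a member of the calcium-activated chloride channel regulator family, had 1231, 1271 and 2008 against 581, 297 and 591 (log2 -1.65 ± 0.31, adjusted p = 0.00295), and its near-identical relatives may share its probes. Foxi1, a transcription factor of ion-transporting cells, fell from 82.4, 102 and 119 to 26.3, 37.6 and 34.9 (log2 -1.62 ± 0.24), and Tmprss2, a membrane-bound serine protease, from 365, 506 and 429 to 198, 87.3 and 166 (log2 -1.60 ± 0.27). The cationic amino acid transporter Slc7a2 read 590.3, 694 and 776 and 391, 224 and 347 (log2 -1.13 ± 0.20, adjusted p = 0.00188). In each of these 5 genes all 3 progesterone arrays lay below all 3 oil arrays. All 5 were among the largest falls, which were taken only from calls without overlap, so this adds no support. Progesterone replicate 2, which had the lowest luminal score, was also the lowest for Upk3a, Clca3a2, Tmprss2 and Slc7a2, as it was for Pgr and Cited1, and the score of this list was 0.01, -0.40 and -0.11 on progesterone replicates 1, 2 and 3. The 6 named genes of the list kept their calls without it. The falls also stood against the other oil arrays, at -1.74 for Upk3a, -1.74 for Clca3a2, -1.14 for Foxi1, -0.92 for Tmprss2 and -1.01 for Slc7a2, and 7 members of the list were called lower there. The rise was that of Cacna1g, a T-type calcium channel, from 17.1, 28.2 and 31.6 to 119.8, 63.1 and 135 (log2 2.02 ± 0.27, adjusted p = 6.71e-05), and it was called against the other oil arrays as well (1.29). Nor was any of these 6 calls lost without any other 1 of the 6 arrays.

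Early response genes rose in part. Egr2, a zinc finger factor induced within minutes by growth signals, read 224, 263 and 228 in oil and 998, 602 and 840.3 with progesterone (log2 1.74 ± 0.25, adjusted p = 0.000184). Its relative Egr1 had 1043, 1098 and 1034 against 2436, 1654 and 2633 (log2 1.05 ± 0.25, adjusted p = 0.0182), and Ier3 156, 174 and 124 against 258, 195 and 213 (log2 0.55 ± 0.12, adjusted p = 0.013). These were the 3 calls, all rises, among 22 immediate early genes, whose median was 0.20. Egr2 (1.63) and Egr1 (1.12) were called against the other oil arrays also, and Ier3 was not (0.20, adjusted p = 0.407). The list had 1 call without progesterone replicate 1, that of Egr2. The Egr1 call was lost also without oil replicate 1 or 2 or progesterone replicate 3. The Ier3 call was lost without progesterone replicate 1 or oil replicate 3.

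The 250 bases before an annotated start of Egr2 are shown because serum response factor, which drives early response genes, binds the CArG box, and this window holds one. In the RefSeq annotation of build GRCm38.p6 it lies at chr10:67537619-67537868 on the plus strand, and the capitals mark the box, whose first base is at position -72 counted with -1 as the base before the start.
Egr2: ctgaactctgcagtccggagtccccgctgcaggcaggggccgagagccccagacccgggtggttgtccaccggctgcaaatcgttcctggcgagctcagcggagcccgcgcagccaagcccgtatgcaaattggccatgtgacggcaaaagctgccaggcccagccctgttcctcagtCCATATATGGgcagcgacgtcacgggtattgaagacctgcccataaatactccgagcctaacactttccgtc
A window of 300 bases was found for 45 of the 73 named called genes, and in these the box was searched on both strands as a stretch that reads the same on each. It stood in the windows of 2 of the 45 genes, Egr2 and Cited1 (4.44%), and of 166 of the 9952 tested genes with a window (1.67%). A gene with several annotated starts has several windows and so more places for a match. The 45 genes had 60 windows and the 9952 had 12750. Egr2 and Cited1 each had more than 1, and some of those of Egr2 overlap and hold the same box. The core ACANNNTGT, which is shared by the DNA elements of the progesterone and glucocorticoid receptors and also reads the same on both strands, stood in 3 of the 45 (6.67%) and in 516 of the 9952 (5.18%). The 3 were Crabp1, Fcgr3 and Lcn2. Lcn2, a secreted siderophore-binding protein, is shown for this core, in capitals, at chr2:32387740-32387989 on the minus strand.
Lcn2: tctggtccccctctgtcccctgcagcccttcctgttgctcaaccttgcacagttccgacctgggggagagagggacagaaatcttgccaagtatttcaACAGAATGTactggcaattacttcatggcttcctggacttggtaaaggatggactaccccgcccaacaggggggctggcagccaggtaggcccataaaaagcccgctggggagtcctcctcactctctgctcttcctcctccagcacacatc
Such a match is a description of the letters and not of a bound site, and the windows of Pgr, Wnt4 and Id4 do not hold the core.

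Among 26 tested genes of the TGF-beta, BMP and CCN families, Ccn2 stood out by the smallest adjusted p of all genes. Ccn2, a secreted matrix-associated factor, read 954, 1030.0 and 1039.7 in oil and 234, 249 and 349 with progesterone, a log2 difference of -1.88 ± 0.17 (adjusted p = 9.03e-07). On the other oil arrays Ccn2 lay at 505 to 838, between the 2 groups of 28 h, and the difference there was -1.21 (adjusted p = 2.55e-05). Its relative Ccn3 went the other way, from 77.9, 87.2 and 90.9 to 131, 189 and 272 (log2 1.15 ± 0.21, adjusted p = 0.00218), but stood at 0.03 against the other oil arrays (adjusted p = 0.952). The activin inhibitor follistatin, Fst, rose from 186, 216 and 330.1 to 409, 337 and 434 (log2 0.72 ± 0.18, adjusted p = 0.0245), a call lost without any 1 of the 6 arrays but oil replicate 3 and progesterone replicate 2, and stood at -0.14 against the other oil arrays (adjusted p = 0.687). With Id4, the list had 3 rises, 1 fall and a median of 0.14.

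Many genes of the extracellular matrix rose, and collagens and fibrillar matrix had more calls than any other of the 28 lists. Of 28 tested collagen and fibrillar matrix genes, 15 were called higher and none lower, 27 had positive differences, and the median was 0.47. Fibronectin, Fn1, read 1202, 1877 and 2721 in oil and 4332, 3515 and 4168 with progesterone (log2 1.12 ± 0.16, adjusted p = 0.000201). The fibril-associated collagen gene Col14a1 had 563, 751 and 975 against 1432, 1378 and 1672 (log2 1.00 ± 0.12, adjusted p = 3.22e-05), and the lysyl oxidase relative Loxl1, which cross-links elastic fibres, 898, 996 and 1005 against 2141, 1812 and 1687 (log2 0.95 ± 0.11, adjusted p = 1.58e-05). In these 3 genes every progesterone array exceeded every oil array. The microfibril gene Mfap5 rose by 1.10 and fibulin 1, Fbln1, by 1.11 on the log2 scale. The other 10 calls rose by 0.22 to 0.89, Col3a1 the least. Col1a1, the main chain of collagen I, read 4321, 4515 and 3462 and 7079, 5674 and 4437, with overlapping arrays (log2 0.47 ± 0.14, adjusted p = 0.0899), and its other probe set pointed the other way. The Fbln1 call was lost without the first array of either group, that of Col3a1 without any array but oil replicate 3 and progesterone replicate 2, and the fit to the 6 arrays called 7 of the list.

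Some provisional matrix genes rose too. Of 16 tested, 7 were called, all higher, with a median of 0.51 and no member below 0. Vcan, the large proteoglycan versican, went from 36.0, 51.2 and 81.5 to 206, 184 and 257 (log2 2.01 ± 0.23, adjusted p = 1.58e-05). Crispld1, a secreted cysteine-rich protein, read 22.2, 38.5 and 32.5 against 173, 78.4 and 132 (log2 2.00 ± 0.25), and the matrix protein spondin 2, Spon2, 36.1, 28.9 and 26.7 against 151, 75.9 and 129.6 (log2 1.91 ± 0.27). All 3 lay under the array median in most or all oil arrays. Tnfaip6, a hyaluronan-binding protein, rose from 128, 148 and 161 to 372, 326 and 336 (log2 1.25 ± 0.13, adjusted p = 7.86e-06), with little spread within either group. Thrombospondin 1, Thbs1, read 97.3, 98.0 and 84.9 and 311, 160.1 and 172 (log2 1.13 ± 0.25, adjusted p = 0.0103), a call lost without progesterone replicate 1, whose value was far above the others. Syndecan 1, Sdc1, a cell surface proteoglycan of epithelium and of plasma cells, rose from 466, 594 and 564 to 1312, 849 and 1073 (log2 0.98 ± 0.12, adjusted p = 4.20e-05).

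Some proteases and inhibitors that act on this matrix rose too. Of 24 tested, 9 were called, all higher, and the median was 0.45. Adamts4, a protease that cleaves versican and related proteoglycans, had 20.7, 25.2 and 31.9 in oil and 155, 74.5 and 82.6 with progesterone (log2 1.95 ± 0.37, adjusted p = 0.00278). Timp1, an inhibitor of matrix metalloproteinases, read 47.2, 62.3 and 84.6 against 233, 149.6 and 189 (log2 1.58 ± 0.20, adjusted p = 4.51e-05). Tissue plasminogen activator, Plat, rose from 116, 177 and 236 to 504, 402 and 537 (log2 1.50 ± 0.18, adjusted p = 3.22e-05). Each had 3 progesterone arrays above 3 oil arrays. All 3 genes were among the largest rises, which were taken only from calls without overlap, so this adds no support. The metalloproteinase gene Mmp3 rose by 0.57 and Adamts5, another proteoglycan-cleaving protease, by 0.56. Both calls were lost without the second oil array and without progesterone replicate 1 or 3, the Mmp3 call also without oil replicate 1 and that of Adamts5 without oil replicate 3. Leaving out progesterone replicate 1 left 3 calls in the list, leaving out progesterone replicate 3 left 4 and leaving out oil replicate 2 left 5, with 3 in the fit to the 6 arrays.

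The matrix rises were large against the 28 h oil arrays and mostly absent against the other oil arrays. Summed over the 28 collagen and fibrillar genes, intensity was 70149 to 77977 on the 28 h oil arrays, 89020.2 to 101169 with progesterone and 92986 to 111570.0 on the other oil arrays. The 28 h oil arrays thus lay below both, and 22 of the 28 genes were called lower in 28 h oil than in the other oil arrays. The list medians against the other oil arrays were -0.07 for collagens and fibrillar matrix, 0.15 for provisional matrix and -0.04 for the proteases, and Fn1 (-0.19), Col14a1 (-0.16), Loxl1 (0.13), Vcan (0.54, adjusted p = 0.21), Crispld1 (0.43), Spon2 (0.46) and Plat (-0.07) were not called. Nor were Mfap5 (-0.22), Fbln1 (-0.07), Col3a1 (-0.08), Thbs1 (0.66, adjusted p = 0.148), Mmp3 (-0.31) and Adamts5 (0.05). Called higher there were Timp1 (0.81, adjusted p = 0.0132), Tnfaip6 (0.50, adjusted p = 0.0235) and Sdc1 (0.75, adjusted p = 0.000279), while Adamts4 missed the threshold (1.22, adjusted p = 0.0518). In 3 other genes among the largest rises the 28 h oil arrays also lay below all other oil arrays. Cd248, a surface protein of fibroblasts and pericytes, read 278, 318 and 333 in oil and 1085, 821 and 726 with progesterone (log2 1.49 ± 0.14, adjusted p = 9.28e-07), with 495 to 889 on the other oil arrays. Akr1c18, whose product inactivates progesterone, had 25.4, 37.0 and 55.2 against 114, 104 and 139 (log2 1.66 ± 0.21), and 137 to 200.3 on the other oil arrays, a range that took in only the highest of the 28 h progesterone arrays. The membrane protein gene Tmem100 rose from 38.8, 60.7 and 81.1 to 178, 146 and 181 (log2 1.54 ± 0.20), with 133 to 249 on the other oil arrays. The retinoic acid-binding protein gene Crabp1 rose from 13.6, 8.40 and 16.6 to 47.8, 28.2 and 36.3 (log2 1.56 ± 0.38, adjusted p = 0.0246). The Crabp1 values are all under the array median, its 28 h oil arrays overlapped with the 11.4 to 28.2 of the other oil arrays, the difference from these was 1.11 (adjusted p = 0.102), and its call was lost without any array but oil replicate 3 and progesterone replicate 2.

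**Figure D3:**
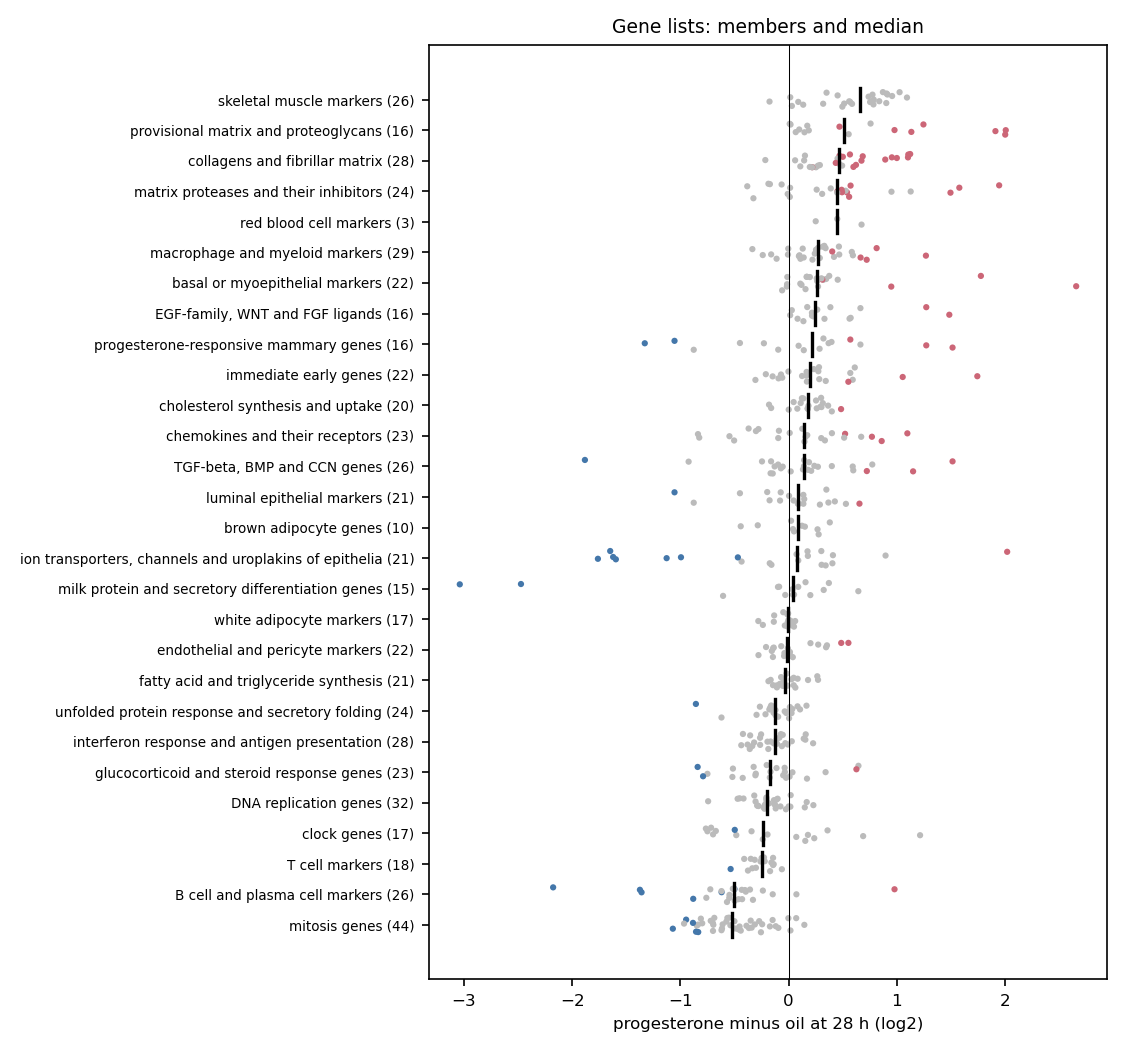
Progesterone minus oil at 28 h on the log2 scale (x axis) for the tested members of 28 gene lists (y axis, number of tested members in brackets), with points for genes called higher (red), called lower (blue) and not called (grey) and a black bar at the median. The 3 matrix lists have medians of 0.45 to 0.51, and the mitosis list has the lowest median, -0.52.

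Macrophage genes rose in part. Of 29 tested myeloid markers 5 were called, all higher, with a median of 0.27. Folr2, a folate receptor of tissue-resident macrophages, read 109, 137 and 229 in oil and 366, 301 and 435 with progesterone (log2 1.27 ± 0.22, adjusted p = 0.00127). The mannose receptor gene Mrc1 had 561, 698 and 1021 against 1294, 1107 and 1251 (log2 0.72 ± 0.15, adjusted p = 0.00542), and the transglutaminase gene F13a1 489, 693 and 1046 against 1378, 1104 and 1265 (log2 0.81 ± 0.16, adjusted p = 0.00518). The chemokine gene Pf4 rose by 0.67 and the Fc receptor gene Fcgr3 by 0.40. In the 3 genes given by array, oil replicate 3 was the highest oil array and nearest to the progesterone group. The 5 genes stood at -0.53 (Folr2), -0.28 (Mrc1), -0.27 (F13a1), 0.03 (Pf4) and -0.30 (Fcgr3) against the other oil arrays, none of them called there, and 17 of the 29 markers were lower in 28 h oil than in other oil. The list had 3 calls without oil replicate 1 or progesterone replicate 1. The Mrc1 call was lost without oil replicate 1, that of F13a1 without progesterone replicate 1, and that of Fcgr3 without any array but oil replicate 3 and progesterone replicate 2.

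A few chemokine genes rose. Of 23 tested chemokines and receptors 4 were called, all higher, with a median of 0.15. Ccl24, a ligand that attracts eosinophils, rose from 40.1, 43.1 and 54.7 to 82.6, 84.1 and 133 (log2 1.10 ± 0.18, adjusted p = 0.000879). The myeloid chemokine Ccl6 read 595, 797 and 1379 and 1473, 1694 and 1566 (log2 0.86 ± 0.17, adjusted p = 0.00487), and Ccl9, which has overlapping arrays and a call lost without any array but oil replicate 3 and progesterone replicate 2, differed by 0.77. The scavenging receptor Ackr3 rose by 0.52. All 4 were negative against the other oil arrays, where Ccl6 (-0.39, adjusted p = 0.233), Ccl9 (-0.31, adjusted p = 0.358) and Ackr3 (-0.33, adjusted p = 0.054) were not called. On those arrays Ccl24 lay at 125 to 168, above all but the highest 28 h progesterone array, and the difference of -0.63 there was called lower (adjusted p = 0.041).

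Several genes of antibody-secreting cells fell. Of 26 tested B cell and plasma cell markers 6 were called lower and 1, Sdc1, higher, 24 had negative differences, and the median was -0.50. The immunoglobulin kappa transcript Igk read 1413, 2023 and 2114 in oil and 352, 699.9 and 266 with progesterone (log2 -2.18 ± 0.48, adjusted p = 0.0105). Of 3 other Igk probe sets none was called, and they stood at -1.56, -1.29 and -0.08 (adjusted p = 0.992 for the last). Mzb1, a chaperone of antibody assembly, had 1478, 1742 and 1448 against 407, 939.9 and 560.2 (log2 -1.37 ± 0.30, adjusted p = 0.0107), and Eaf2, a transcription elongation factor high in germinal centre and plasma cells, 150.1, 180.1 and 151 against 41.8, 95.2 and 60.8 (log2 -1.36 ± 0.30, adjusted p = 0.00964). Progesterone replicate 2 was the highest progesterone array for all 3. Jchain, the joining chain of secreted antibodies, fell from 6266, 6980.0 and 7461 to 2994, 4585 and 3806 (log2 -0.88 ± 0.22), and the lymphocyte factors Irf4 and Spib were the other called falls of the list. The immunoglobulin heavy chain gene Ighg3, which is not on the list and whose probes may read related heavy chains, fell by 1.18 (log2). Cd79a, part of the receptor of all B cells, read 3183, 2813 and 1313 and 1824, 2273 and 907 with overlapping arrays and was not called (log2 -0.55 ± 0.28, adjusted p = 0.453). With the other oil arrays as the control, Igk (-0.37), Mzb1 (-0.18), Eaf2 (-0.13), Jchain (-0.12), Irf4 (-0.26), Spib (-0.08) and Ighg3 (-0.39) were not called, Sdc1 was called higher as given above, and 10 of the 26 markers were higher in 28 h oil than in other oil. Leaving out the second oil array or the first progesterone array left 1 call in the list, the rise of Sdc1, and no fall. Leaving out progesterone replicate 3 left 4, and leaving out progesterone replicate 2 gave 15. The calls of Mzb1, Eaf2, Ighg3, Igk and Jchain were each lost without either of the first 2 of these arrays, those of Igk and Jchain also without progesterone replicate 3, and that of Jchain without oil replicate 3. Those of Irf4 and Spib were lost without any array but oil replicate 3 and progesterone replicate 2.

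A single T cell gene fell. All 18 tested markers had negative differences, with a median of -0.25, and only the cytokine receptor Il7r was called, from 1276, 1629 and 1519.5 to 831, 1100.3 and 1135 (log2 -0.54 ± 0.12, adjusted p = 0.0155). Against the other oil arrays Il7r stood at -0.10 (adjusted p = 0.671) and the list median was -0.11, and Il7r was called higher in 28 h oil than in other oil (0.43, adjusted p = 0.00763). The Il7r call was lost, and no marker called, without oil replicate 2 or progesterone replicate 1, while 3 markers were called without oil replicate 3 and 2 without progesterone replicate 2. Of the 28 tested interferon response and antigen presentation genes none was called by limma (9 with an unadjusted p under 0.05), with a median of -0.13; the values of Ciita and Tap1, the most changed, were -0.44 ± 0.20 (adjusted p = 0.375) and -0.42 ± 0.15 (adjusted p = 0.173). In this list 3 genes were called without oil replicate 3 and 2 without progesterone replicate 3, and 1 without progesterone replicate 2.

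Most genes of cell division had lower values, and few passed the test. Of 44 tested mitosis genes, 41 had negative differences, the median was -0.52, and 5 were called, all lower. Arrays did not overlap for 30 of the 44, against 12% of all genes tested. The proliferation marker Mki67 read 711, 659.7 and 537 in oil and 240.4, 457 and 320.4 with progesterone (log2 -0.95 ± 0.21, adjusted p = 0.0123). The condensin subunit Ncapg had 166, 140.0 and 157 against 44.4, 113 and 78.3 (log2 -1.07 ± 0.28, adjusted p = 0.0445). Ube2c, which tags cyclins for destruction, fell by 0.88 (log2), the centrosome kinase Nek2 by 0.85 and topoisomerase 2 alpha, Top2a, by 0.83. Progesterone replicate 1 had the lowest values and replicate 2 the highest for Mki67 and Ncapg. None of the 32 tested replication genes was called by limma (7 with an unadjusted p under 0.05), with a median of -0.20; Rrm2, a ribonucleotide reductase subunit, stood at -0.74 ± 0.24 (adjusted p = 0.11) and the helicase subunit Mcm5 at -0.47 ± 0.17 (adjusted p = 0.183). The mitosis score was 0.19, 0.18 and 0.23 on the 28 h oil arrays, -0.56, -0.01 and -0.35 on the progesterone arrays and -0.43 to 0.04 on the other oil arrays, so that the 28 h oil arrays were the highest. The list median against the other oil arrays was -0.16 and none was called, with Mki67 at -0.29, Ncapg at -0.34, Ube2c at -0.18, Nek2 at 0.0042 and Top2a at -0.26. No mitosis gene was called when the first or second oil array or the first progesterone array was left out, 2 were called when replicate 3 of either group was left out, and 12 without progesterone replicate 2. Leaving out oil replicate 3 or progesterone replicate 2 gave 1 called replication gene. Ccnd1 rose on these same arrays.

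**Figure D4:**
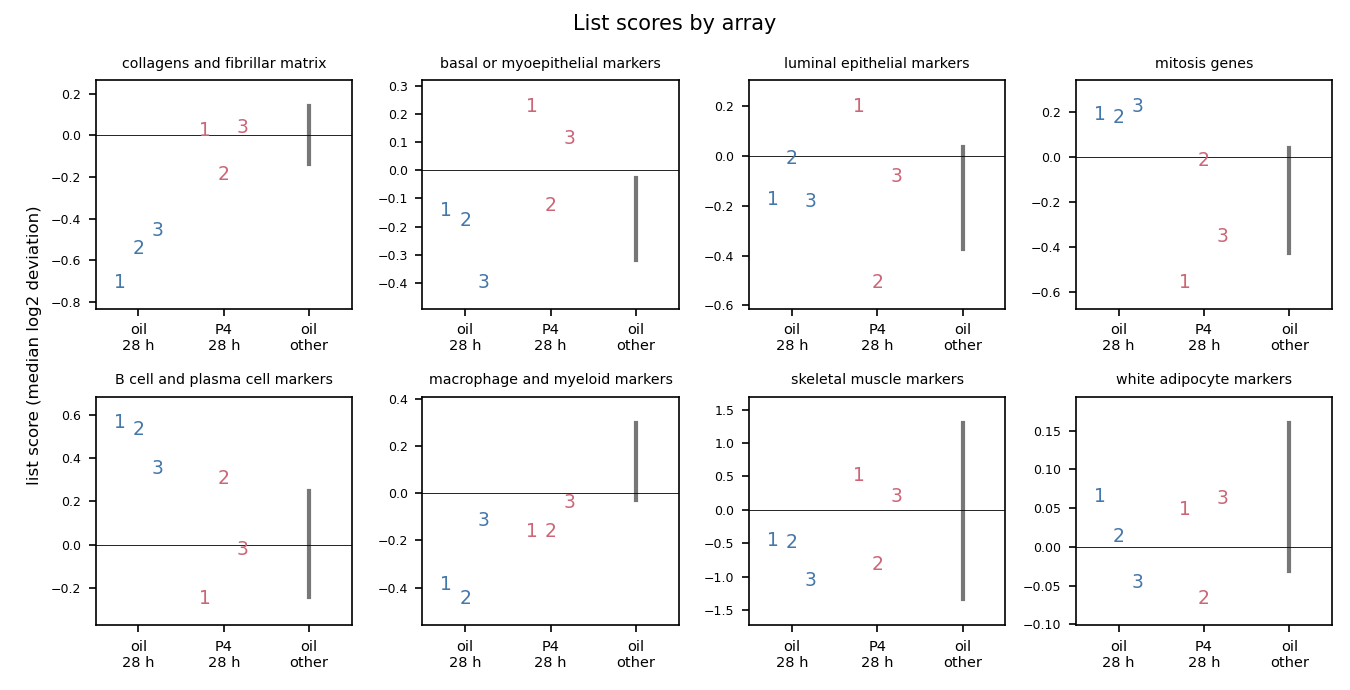
List score, the median log2 deviation of a list's tested genes from their means over all 24 arrays (y axis, scaled per panel), for 8 lists. Digits are the replicate numbers of oil (blue) and progesterone (red, P4) at 28 h, and grey lines span the 9 oil arrays of other times. For collagens the 28 h oil arrays lie below the grey range and for mitosis above it, and progesterone replicate 2 is lowest for luminal markers.

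The caseins Csn2 and Csn1s2a fell from levels that no array of another time reached. Csn2, the gene of beta-casein, a milk protein, read 1194, 575 and 212 on the oil arrays and 153, 86.3 and 64.7 with progesterone, and Csn1s2a 668, 307 and 81.9 against 62.5, 24.1 and 20.1. Both were called lower, at -2.47 ± 0.48 (adjusted p = 0.00343) and -3.04 ± 0.56 (adjusted p = 0.00248). Both passed the filter on dim probe sets only through the oil group in which they were high: Csn1s2a exceeded the array median on those 3 arrays alone and Csn2 on them and 2 progesterone arrays. A gene chosen in this way had to differ, and its count among the calls supports nothing. With no such filter both were still called lower, and the fit to the 6 arrays called neither. On the 18 arrays of other times, oil and progesterone alike, Csn2 lay between 3.38 and 12.9 and Csn1s2a between 3.38 and 17.6, that is, near 3.38, the lowest value of the table. Both 28 h groups thus lay above every array of other times for these genes, and in each group replicate 1 was the highest. Relative to the other oil arrays, Csn2 was higher with progesterone at 28 h (3.51, adjusted p = 2.55e-05), and Csn1s2a missed the threshold (1.84, adjusted p = 0.0568). Whey acidic protein, Wap, which was too dim to be tested, had 84.9, 42.8 and 23.98 in oil and 16.5, 18.3 and 10.2 with progesterone, where arrays of other times had 6.68 to 23.2. Csn1s1, also untested, read 207, 68.7 and 54.8 against 61.0, 32.3 and 28.5, with 17.1 to 39.6 on arrays of other times, so that 2 of its progesterone arrays lay within that range. Of the 15 tested milk and secretory genes only the 2 caseins were called, with a median of 0.04. Kappa-casein, Csn3, was not called, with 1355, 1214 and 1339.5 in oil and 2054, 1291 and 1803 with progesterone and 1241 to 4253 on the arrays of other times. The Csn2 call was lost without oil replicate 1, and 4 of the list were called without progesterone replicate 2.

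Among glucocorticoid and steroid response genes, 2 well known glucocorticoid targets fell and 1 gene rose. Tsc22d3 read 1954, 2233 and 2469 in oil and 1112, 1272 and 1327 with progesterone (log2 -0.84 ± 0.16, adjusted p = 0.00278). Ddit4, an inhibitor of mTOR signalling, had 1862, 1887 and 1618 against 942, 1064 and 1097 (log2 -0.79 ± 0.16, adjusted p = 0.00538). Lcn2, whose upstream sequence is given above, rose from 1222, 1258 and 1279.5 to 2562, 1573 and 1797 (log2 0.63 ± 0.13, adjusted p = 0.0049). The chaperone gene Fkbp5 spread from 345 to 1047 within oil and was not called (log2 -0.51 ± 0.24, adjusted p = 0.38), except without oil replicate 1. Of the 23 tested, 17 had negative differences, with a median of -0.17. On the same scale against the other oil arrays, Tsc22d3 (-0.51, adjusted p = 0.0641), Ddit4 (-0.50, adjusted p = 0.0713) and Lcn2 (0.36, adjusted p = 0.114) were not called. The calls of Ddit4 and Lcn2 were lost without progesterone replicate 1, which left 1 call in the list, and 5 were called without oil replicate 1.

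A single clock gene was called. Of 17 tested, Tef, a clock output factor, fell from 1160.1, 1256 and 1314 to 799, 815 and 1045 (log2 -0.50 ± 0.13, adjusted p = 0.0488), and its call was lost without any array but progesterone replicate 3. Its difference was 0.0019 against the other oil arrays (adjusted p = 0.996), its level in 28 h oil was called higher than in other oil (0.50, adjusted p = 0.00499), and its other probe set stood at -0.05 (adjusted p = 0.992). Arrays did not overlap for 11 of the 17, against 12% of all genes tested, and the median was -0.24. The list had 4 calls without progesterone replicate 3 and none without oil replicate 2, oil replicate 3 or progesterone replicate 1.

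Lists of fat cells had no calls in the limma fit, and those of vessels, sterol synthesis and protein folding had few. Of 17 white adipocyte markers none was called (0 with an unadjusted p under 0.05), with a median of -0.01, and the fat cell hormone Adipoq read 11787, 11398 and 10238 and 11028, 10500.3 and 11700.4. The most changed of that list, Aqp7 and Lipe, stood at -0.28 ± 0.33 (adjusted p = 0.87) and -0.24 ± 0.15 (adjusted p = 0.61). None of 21 fatty acid and triglyceride synthesis genes was called (median -0.04, 2 with an unadjusted p under 0.05), where Fads1 was at 0.27 ± 0.09 (adjusted p = 0.128) and Scd2 at 0.27 ± 0.10 (adjusted p = 0.24), and Scd2 was called without progesterone replicate 2. Nor was any of 10 brown adipocyte genes (median 0.09, 1 with an unadjusted p under 0.05), with Elovl3 at -0.44 ± 0.17 (adjusted p = 0.228) and Dio2 at 0.38 ± 0.25 (adjusted p = 0.618). Among 22 vessel markers, the endothelin receptor Ednrb rose by 0.55 and the pericyte receptor Pdgfrb from 1163, 1289.5 and 1134 to 1818, 1545 and 1665 (log2 0.49 ± 0.09, adjusted p = 0.00219), with a list median of -0.01. Pdgfrb was also higher against the other oil arrays (0.33, adjusted p = 0.0262), and Ednrb was not (-0.15, adjusted p = 0.499). The Ednrb call was lost without oil replicate 1 or progesterone replicate 1. Hmgcs1, of the sterol pathway, was the only call among 20 cholesterol genes (0.49 ± 0.13, adjusted p = 0.0487; median 0.18), and kept it only without oil replicate 1 or progesterone replicate 3. Against the other oil arrays Hmgcs1 stood at -0.0032 (adjusted p = 0.993) and the list median was -0.07, and Hmgcs1 was called lower in 28 h oil than in other oil (-0.49, adjusted p = 0.00484). Among 24 unfolded protein response genes the co-chaperone Dnajc12 alone was called, from 227, 298 and 231 to 137, 115 and 166 (log2 -0.86 ± 0.19, adjusted p = 0.012; median -0.12). It stood at -0.94 against the other oil arrays (adjusted p = 0.00184), and its call was lost without oil replicate 2, progesterone replicate 1 or progesterone replicate 2.

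Skeletal muscle RNA varied between pools. Of 26 tested muscle markers 25 had positive differences and the median was 0.66, the highest of the lists, but none was called by limma (3 had an unadjusted p under 0.05) and none had arrays that did not overlap. Actin of skeletal muscle, Acta1, read 4085, 4088 and 3036 in oil and 7618, 3332 and 6506 with progesterone (log2 0.57 ± 0.33, adjusted p = 0.544), and the most changed, Actn3 and Neb, stood at 1.09 ± 0.59 (adjusted p = 0.484) and 1.03 ± 0.53 (adjusted p = 0.464). Summed intensity of the list ranged over 18289 to 28152 in 28 h oil, 23602 to 55452 with progesterone and 14737 to 90564 on the other oil arrays. The sum over white adipocyte markers ranged over 112207 to 123617, 111758 to 122170.0 and 111927 to 126289, and that over macrophage markers over 31338 to 39304, 36470.5 to 39301 and 38100.4 to 47457. Sums over B cell and plasma cell markers were 43931 to 44158 in 28 h oil, 27745 to 35673 with progesterone and 26301 to 35929.9 on the other oil arrays, those of 28 h oil being the highest. Their part in the differences described above was not tested. Only 3 red blood cell genes were tested and none was called by limma (2 had an unadjusted p under 0.05), with Alas2 at 0.67 ± 0.28 (adjusted p = 0.27) and Slc4a1 at 0.45 ± 0.27 (adjusted p = 0.559).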

How the data were processed

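The table that the authors deposited gives linear intensity values of 45101 probe sets on 24 Affymetrix arrays. RNA was, per the labels' protocols, extracted with Trizol and labelled with biotin in 1 cycle. How the authors summarized and normalized probes is not given in the sources used here. The log2 medians of the arrays spanned 0.16, so the values were used as deposited.

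Before log2 was taken, values were raised to a floor of 7.38, the table's 10th percentile, which makes fold changes of dim genes too small. Control probe sets (64) were not tested. Probe sets with 1 gene symbol in the platform annotation were used (34958; in all, 932 have several and 9211 none); 34754 were matched to RefSeq by gene number and given its symbols. A probe set had to exceed its array's median (50th percentile) on at least 3 arrays, and where a gene had several, the brightest on average over the 24 arrays stood for it, which left 12352 genes. Levels are not compared between genes.

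All 24 arrays were fitted with a mean per group in limma 3.58.1 (R 4.3.3), with an intensity trend in the variance and 16 residual degrees of freedom, and the 28 h contrast was adjusted over all 12352 genes. The error given with a log2 difference is the model's SE. Tests are two-sided. The number of arrays limits the precision.

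The comparison, the 28 lists and the named genes were chosen with earlier results of these data known. Named were the 15 largest rises and falls among calls without overlap (clone names left out), up to 5 called members of each list or the 2 most changed where none was called, and 21 genes always, of which 2 are not analysed here. Genes named beyond this rule (Csn1s1, Csn3, Wap, Ckm, Cd3e, Krt8, Epcam, Pecam1, Plin1, Col3a1, Irf4, Spib and those under other observations) were chosen after their values were seen or to check the tissue. Promoter windows come from RefSeq (GRCm38.p6). Whether replicate numbers pair the arrays was checked by correlating deviations from group means. Alternatives were other filters, floors, scalings, probe set rules, variance models, weights, fewer arrays and a replicate block.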

Additional observations from a re-analysis of the deposited data

How the results depend on the processing

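Counts of called genes depended most on how arrays were weighted and pooled. With array weights 1619 genes were called, 676 higher and 943 lower, and in the fit to the 6 arrays of 28 h alone 76, 55 higher and 21 lower. Leaving out 1 of the 6 arrays gave 140 to 459 calls, 120 to 326 higher and 20 to 133 lower. Progesterone replicate 1 gave the lowest counts (140 without it) and progesterone replicate 2 the highest (459), with 202 and 26 falls without oil replicate 2. Without any 1 of the 6 arrays 122 of the 313 calls held. The other 10 settings, among them other filters, floors, scalings and the replicate block over 24 arrays (298), called 248 to 340 genes. The titles number the replicates without saying that the numbers pair the arrays, and no pairing was assumed. Same-numbered oil and progesterone arrays had deviations correlated at 0.0619, 0.0425 and 0.145, and differently numbered ones at -0.124 to 0.108. So few values cannot settle whether the numbers pair the arrays. With the replicate block in the fit to 6 arrays, 358 genes were called, 237 higher and 121 lower, including 14 of 26 muscle markers, 9 of 44 mitosis genes and Elf5.

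Of 73 named called genes, 40 kept the call without any 1 of the 6 arrays and 35 in the fit to those 6. Leaving out progesterone replicates 1, 2 and 3 lost 30, 3 and 13 of these calls, leaving out oil replicates 1, 2 and 3 lost 17, 21 and 8, and the call was lost by 10 without a filter on dim probe sets and by at most 7 in the other settings. None of the 73 changed direction in any setting run. Changes of direction were those of 4 genes that were not called: Esr1 (-0.046 with array weights), and, over single arrays left out, Adipoq (-0.067 to 0.035), Aqp7 (-0.71 to 0.18) and Krt18 (-0.25 to 0.11). Other probe sets were measured for 32 of the 73 named called genes, all in the same direction. None of these was called for Acta2, Ccl9, Ccnd1, Fbln1, Fn1, Ighg3, Igk, Il7r, Tef, Thbs1 and Top2a. Values of dim genes, under a mean array median of 65.4 in oil, are near background and limit the fold changes of Krt17, Krt15, Vcan, Crispld1, Spon2, Adamts4, Akr1c18 and Crabp1, among others.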

Other observations

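Outside the lists, 227 of the 313 called genes remain, 182 higher and 45 lower. Those given here were picked with their values in view and stand for no theme. Genes of mast cells were among the rises: the carboxypeptidase gene Cpa3 read 152, 255 and 316 in oil and 427, 359 and 517 with progesterone (log2 0.90 ± 0.21, adjusted p = 0.0172), the protease gene Mcpt4 rose by 0.82, Cma1 by 0.75 and Tpsb2 by 0.68. Against the other oil arrays these stood at -0.29 (Cpa3), -0.34 (Mcpt4), -0.26 (Cma1) and -0.05 (Tpsb2). The secreted frizzled-related genes Sfrp2 (1.07 ± 0.15, adjusted p = 0.000184) and Sfrp4 (0.82 ± 0.15, adjusted p = 0.00229), which bind WNT ligands, were higher than in 28 h oil and stood at -0.40 and -0.25 against the other oil arrays. The lectin genes Cd209g (1.31), Fcna (1.30) and Mgl2 (0.83) and the macrophage product Retnla (0.82) were called higher too, at -0.21, -0.82, -0.02 and -0.27 against the other oil arrays.

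Other rises were called against both sets of oil arrays. Mboat1, a lysophospholipid acyltransferase, read 143, 135 and 133 in oil and 356, 194 and 283 with progesterone (log2 0.98 ± 0.19, adjusted p = 0.00396) and stood at 1.02 against the other oil arrays (adjusted p = 0.000733). The acyl-CoA thioesterase Acot1 rose by 1.31 and stood at 1.16 there, the transcription factor Tfap2b by 0.83 and at 0.88, the arginase Arg2 by 0.95 and at 1.41 (its 28 h oil arrays read 90.7, 115 and 153 against 59.4 to 104 on the other oil arrays), and the TWEAK receptor Tnfrsf12a by 1.09 and at 0.89. Among the falls, Ly6d, a surface protein of epithelial cells, read 282, 289 and 292 in oil and 138, 117 and 182 with progesterone (log2 -1.01 ± 0.20, adjusted p = 0.00373; -1.16 against the other oil arrays). The methyltransferase Inmt fell by 0.85 (log2; -0.92 against the other oil arrays) and the deacetylase Hdac11 by 0.84 (-0.57). The adhesion molecule Vcam1 (-0.62) and the lymphocyte receptor Slamf7 (-0.77) fell against 28 h oil and stood at -0.22 and -0.20 against the other oil arrays. Of all these genes, only Sfrp2, Sfrp4, Cd209g, Retnla, Tnfrsf12a, Ly6d and Hdac11 kept their calls without any 1 of the 6 arrays, the arrays of Arg2 overlapped, and Slamf7 passed the filter on dim probe sets only through the 28 h oil arrays.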
